A study of Mus musculus with 6 samples.

Results

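The genes described here are the 10 genes of the major histocompatibility complex (MHC) class II pathway that the expression table lists by symbol: *H2-Aa*, *H2-Ab1*, *H2-Eb1*, *H2-Eb2*, *H2-DMa*, *H2-DMb1*, *H2-DMb2*, *H2-Oa*, *H2-Ob* and *Cd74*. They were 10 of 19831 listed genes and 10 of the 15309 whose mean value was at least 10. The first 9 lie on mouse chromosome 17, and *Cd74*, which encodes the invariant chain, lies on another chromosome. RNA sequencing compared the inguinal adipose tissue (iAT) of wild-type (WT) mice with that of mice lacking *Npffr1*, a receptor of neuropeptide FF, called KO, at postnatal day 6. Each genotype had 3 samples, taken from animals kept under specific pathogen-free conditions. The labels give no strain, sex or litter for these 6 samples and do not say how the knockout was made or whether a sample is 1 animal. The group of genes was chosen from the measured difference between these 2 genotypes, so every ratio below is a description of these libraries and carries no test.

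MHC class II molecules are pairs of an α and a β chain that present peptides from endocytosed proteins to CD4+ T cells. The invariant chain holds newly made pairs and guides them to the endosome, the DM dimer then exchanges its remnant for other peptides, and the DO dimer restrains DM. Dendritic cells, B cells and macrophages carry class II, and in these cells the genes are switched on together by the coactivator CIITA, which acts through proteins bound to the X and Y boxes of the promoters. Inguinal adipose tissue surrounds a lymph node, so a sample of it can hold lymphocytes as well as adipocytes and resident macrophages.

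The Y box carries the letters CCAAT on 1 of the strands. The promoters of 7 class II genes held a longer form of it, TGATTGG as read on the strand of the gene, within 102 bases of the start site. In 4 of the β chain genes, *H2-Eb1*, *H2-Eb2*, *H2-DMb1* and *H2-DMb2*, it followed AACNGATG, where N is any base, 1 spelling that resembles the X box. The stretches below are shown because they are the part of the control region that these genes share. They were read 5′ to 3′ on the strand of each gene from the RefSeq promoter table (build GRCm38.p6), and capitals mark AACNGATG and TGATTGG.
H2-Eb1: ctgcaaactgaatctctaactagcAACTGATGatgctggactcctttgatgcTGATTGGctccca
H2-Eb2: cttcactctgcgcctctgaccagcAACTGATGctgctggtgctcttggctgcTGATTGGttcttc
H2-DMb1: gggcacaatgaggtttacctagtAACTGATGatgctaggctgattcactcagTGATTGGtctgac
H2-DMb2: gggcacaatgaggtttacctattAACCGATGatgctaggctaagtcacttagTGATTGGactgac
H2-Aa: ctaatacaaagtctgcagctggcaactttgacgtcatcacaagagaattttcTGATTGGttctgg
H2-Oa: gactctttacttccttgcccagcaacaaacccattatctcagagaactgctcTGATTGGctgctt
H2-Ob: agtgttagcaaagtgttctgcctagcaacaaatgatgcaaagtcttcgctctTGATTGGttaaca

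These 65-base stretches lie at chr17:34305754-34305818 for *H2-Eb1*, chr17:34325521-34325585 for *H2-Eb2*, chr17:34153076-34153140 for *H2-DMb1* and chr17:34145105-34145169 for *H2-DMb2*, all on the plus strand. Those of *H2-Oa* and *H2-Ob* lie on the plus strand at chr17:34092282-34092346 and chr17:34238794-34238858, and that of *H2-Aa* lies on the minus strand at chr17:34287861-34287925. Between the paired letters stood 20 bases in *H2-Eb1* and *H2-Eb2* and 21 bases in *H2-DMb1* and *H2-DMb2*. TGATTGG began between 45 bases before the start site, in *H2-Oa*, and 102 bases before it, in *H2-Eb2*. Only the E and DM β chain genes held both sets of letters, and the genes for the H2-A α chain and both DO chains held TGATTGG without AACNGATG. The absence of that spelling does not show that a gene lacks an X box. In *H2-Ob* the similar letters aacaaatgatg stood before TGATTGG.

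Of the 10 genes, 8 had an entry in the promoter table, which holds 250 bases before and 50 bases after each start site, and *H2-DMa* had 2 entries. *H2-Ab1* and *Cd74* had none. Searched on both strands, the core of the Y box, CCAAT, was in a promoter of 8 of these 8 genes and in 37.4% of all 32851 promoters. The X box core ACAGATG was in 2 of the 8, *H2-Aa* and *H2-Oa*, and in 5.01% of all promoters. In both genes the match lay upstream of the stretch shown above, and in *H2-Aa* it was on the strand opposite to the gene. Neither match stood as close to TGATTGG as AACNGATG did in the β chain genes, so these matches do not place an X box beside the Y box. The longer letters were chosen after reading the members' promoters, so their frequency among the members is not independent of that choice. TGATTGG, which contains the core of the Y box, was in 7 of 8 members, all but *H2-DMa*, and in 7.82% of all promoters, and AACNGATG was in 4 of 8 and in 2.32% of all promoters. AACNGATG followed by TGATTGG on the gene's strand, with 10 to 40 bases between, occurred in 6 promoters of the whole table (0.0183%). They were those of the 4 E and DM β chain genes, of *BC051142*, with 21 bases between, and of *Gm35444*, with 37. *BC051142* lies a few listed genes beyond *H2-Eb2* on chromosome 17, and its value was 28.1 in WT and 28.5 in KO. A match of letters is a description of the sequence and not evidence of binding.

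The table gives 1 value for each gene in each genotype, a normalized count by the authors, so a value has no replicate error of its own. It is not the plain mean of the 3 libraries of that genotype. Differences of weakly counted genes are pulled toward 0, and a genotype without reads can have a value above 0, as *Npffr1* shows below. How far the class II values were moved in this way is not known. Over all genes the values summed to 23137343 in WT and 23640005 in KO. Levels are compared between genes below as normalized counts per kilobase of the gene length in the table. *Npffr1* itself was close to the limit of detection, at 1.12 in WT and 0.855 in KO. Its reads in single libraries, worked out as described with the low genes below, were 1, 0 and 5 in WT and 0, 0 and 0 in KO, so 1 WT library also had none. Shorter genes tended to be higher in KO: the median log2 ratio was 0.27 in the length class of *H2-DMb2* and -0.03 in that of *H2-Eb2*, against 0.01 over all 15309 genes, and each class II ratio is therefore also given after subtraction of the median of its length class (20 classes).

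The class II genes made up 0.142% of the summed values in WT (32742) and 0.206% in KO (48688). All 10 were higher in KO than in WT, by 1.19-fold to 1.83-fold, with a median log2 ratio of 0.58, where 51.2% of the 15309 genes were above 0. The invariant chain alone contributed 47.1% of the class II sum in WT and 47.7% in KO. A log2 ratio of at least 0.5 (1.41-fold) was met by 7 of the 10 genes upward and by 0 downward, where 4.37% of the 15309 genes met it upward and 4.78% downward. After centring on genes of like length, 2 of 10 met it upward, *H2-Eb2* and *H2-DMb2*, beside 3.36% of all genes, and the median fell to 0.38. All 10 centred ratios were above 0, as were 50% of all genes, a share that the centring itself sets. Because the group was chosen on this contrast, nothing is read from these counts about the members. In bulk tissue, more cells that carry class II and more class II RNA per cell cannot be told apart.

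**Figure D1:**
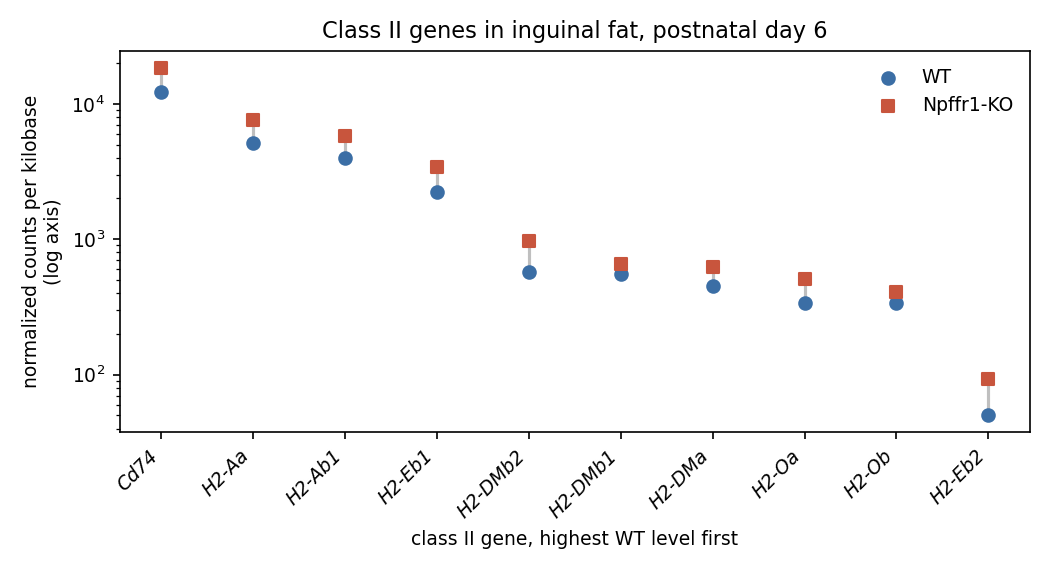
Level of each class II gene in WT (blue circles) and *Npffr1*-KO (red squares) iAT, in normalized counts per kilobase on a log axis, 1 authors' value per genotype, joined by a line. The KO value lies above the WT value for all 10 genes, and the order from *Cd74* (12187 in WT) to *H2-Eb2* (50.7 in WT) is the same in both genotypes.

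*Cd74* had the highest level, 15416 in WT and 23238 in KO, a 1.51-fold difference. Per kilobase it stood at 12187 in WT and 18370 in KO, and its WT level was at the 99.4th percentile of all listed genes. Among the genes described here it is the one not linked to the others, since it lies outside chromosome 17, and its log2 ratio of 0.59 sat beside those of the classical chains. The 95% counting interval of that ratio ran from 0.58 to 0.61, where a counting interval covers the sampling of reads only and not the spread between mice. Centred on length, the ratio was 0.42.

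The classical class II chains followed. *H2-Aa*, the α chain of the H2-A molecule, had 5525 in WT and 8300 in KO (log2 ratio 0.59, counting interval 0.56 to 0.62). Its partner *H2-Ab1* had 4757 in WT and 6883 in KO (0.53, 0.50 to 0.56). The 2 chains of the H2-A dimer were thus at similar levels and differed between genotypes by a like factor: per kilobase the α chain was at 1.28 times the β chain in WT and at 1.33 times in KO. *H2-Eb1*, the β chain of H2-E, had 3705 in WT and 5675 in KO, a ratio above those of both H2-A chains (0.62, 0.58 to 0.65). Its level per kilobase was 0.557 times that of *H2-Ab1* in WT and 0.589 times in KO. Centred on length, the 3 ratios were 0.38, 0.36 and 0.50, the last of them 0.4971 and so just under the 0.5 used above.

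*H2-Eb2*, a further β chain gene of the E type, had the lowest level and the highest ratio. Its value was 171.5 in WT and 313.2 in KO (log2 ratio 0.87, counting interval 0.71 to 1.03), which ranked 120th of the 15309 genes. Per kilobase it reached 0.0228 times *H2-Eb1* in WT and 0.0272 times in KO. It is also the longest of the 10 genes, at 3380 bases, and centring on length left its ratio at 0.90. The α chain of H2-E appears in the table only as the pseudogene *H2-Ea-ps*, with 0 reads in each WT library and 0, 3 and 3 reads in the KO libraries, which is too few to give a level.

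The peptide exchange factor DM is a dimer of the H2-DMa chain with an H2-DMb chain. *H2-DMa* had 751.5 in WT and 1033 in KO (log2 ratio 0.46, counting interval 0.38 to 0.54), the nearest ratio below 0.5. The 2 β chain genes stood apart from each other. *H2-DMb2* had 447.5 in WT and 763.5 in KO (0.77, 0.67 to 0.87), and *H2-DMb1* had 707.9 in WT and 846 in KO (0.26, 0.17 to 0.34). The level of *H2-DMb1* per kilobase was therefore 0.968 times that of *H2-DMb2* in WT and 0.678 times in KO. These 2 genes are close copies: 31.4% of the 31-base stretches of *H2-DMb1* transcripts (GENCODE M21) also occur in *H2-DMb2*, and 29.7% of those of *H2-DMb2* occur in *H2-DMb1*. The split of reads between the 2 is for that reason uncertain, whereas the share in other genes was at most 1.41% for each of the other 8 members. A sum of both depends less on that split, and the level per kilobase of *H2-DMa* was 0.405 times the summed β chains in WT and 0.382 times in KO. Centred on length, the ratios were 0.34 for *H2-DMa*, 0.50 for *H2-DMb2* and 0.09 for *H2-DMb1*.

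DO, which restrains DM and is known mainly from B cells and thymic epithelium, is a dimer of the products of *H2-Oa* and *H2-Ob*. *H2-Oa* had 362.6 in WT and 540.9 in KO (log2 ratio 0.58, counting interval 0.47 to 0.69). *H2-Ob* had 898.1 in WT and 1096 in KO (0.29, 0.21 to 0.36). Per kilobase the 2 chains were nearly equal in WT, at 341 and 336, and the α chain was at 1.24 times the β chain in KO. *H2-Oa* is much the shorter gene, and centred on length its ratio was 0.37, below 0.5, beside 0.26 for *H2-Ob*, so most of this imbalance moved with the length trend. *H2-DMb1* and *H2-Ob* had the lowest ratios of the 10, as they did after centring, where the ratio of *H2-Ob* lay close to the 0.34 of *H2-DMa* and the value of *H2-DMb1* rests on the uncertain split of reads. The inhibitory α chain stood at 0.752 times *H2-DMa* in WT and 0.816 times in KO.

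Ordered by WT level per kilobase, the genes ran *Cd74*, *H2-Aa*, *H2-Ab1*, *H2-Eb1*, *H2-DMb2*, *H2-DMb1*, *H2-DMa*, *H2-Oa*, *H2-Ob* and *H2-Eb2*. The same order held in KO for all 10. Neighbours with close levels, such as *H2-DMb2* and *H2-DMb1* in WT (569 and 551) and *H2-Oa* and *H2-Ob* in WT, cannot be ordered against a spread between mice, because the table holds none.

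**Figure D2:**
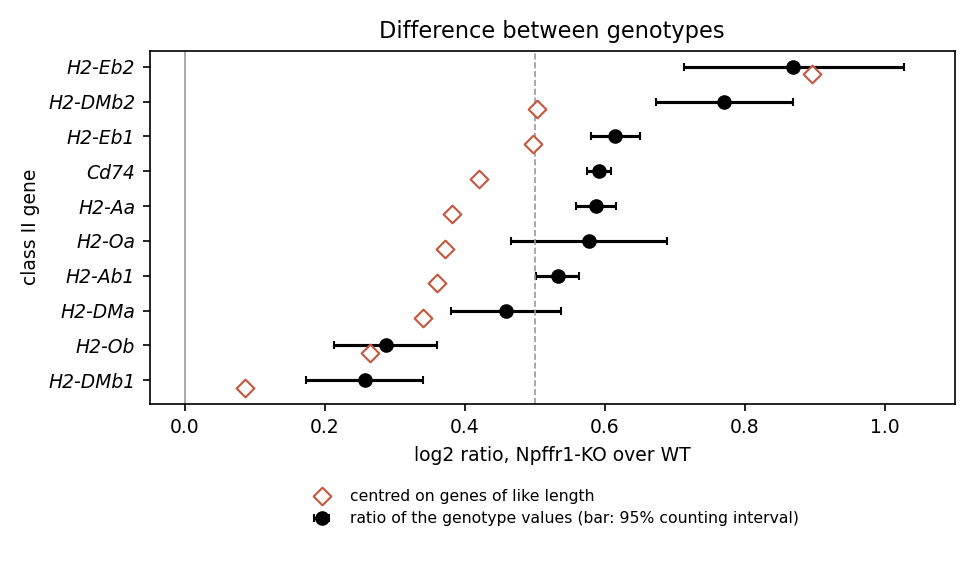
Log2 ratio of KO over WT for each class II gene (black points, bars showing the 95% counting interval) and the same ratio centred on genes of like length (open diamonds), with a dashed line at 0.5. *H2-Eb2* (0.87) and *H2-DMb2* (0.77) are highest and *H2-DMb1* (0.26) and *H2-Ob* (0.29) are lowest, and centring moved every gene except *H2-Eb2* to the left.

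Along chromosome 17 the class II genes were compared with the listed genes around them, in the order of the RefSeq annotation. Between the first and the last of the 9 members stood 5 other genes, of which *Psmb9* (676.1 in WT, 1037 in KO, log2 ratio 0.62) and *Psmb8* (1709 and 2449, 0.52), both subunits of the immunoproteasome, also reached 0.5. Centred on length, both were at 0.35 and 0 of the 5 reached 0.5, beside 3.36% of all genes. The median of these 5 genes was 0.28, against 0.58 for the 9 class II genes of the chromosome. Among the 20 listed genes before *H2-Oa*, 19 had a mean of at least 10, 0 reached 0.5 in either direction, and the median was 0.11. Among the 20 listed genes beyond *H2-Eb2*, 16 had a mean of at least 10, 0 reached 0.5 upward and 2 were lower by that much. These were *Ager*, a receptor for advanced glycation end products, at 371.7 in WT and 211 in KO, and *Egfl8*, at 531.8 in WT and 314.8 in KO. The other 765 genes of chromosome 17 with a mean of at least 10 had a median of 0.04, with 34 higher and 37 lower. Over all 15309 genes, 4.37% reached 0.5 upward and 4.78% downward. With so few genes between the members and in each flank, nothing is read from their counts.

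**Figure D3:**
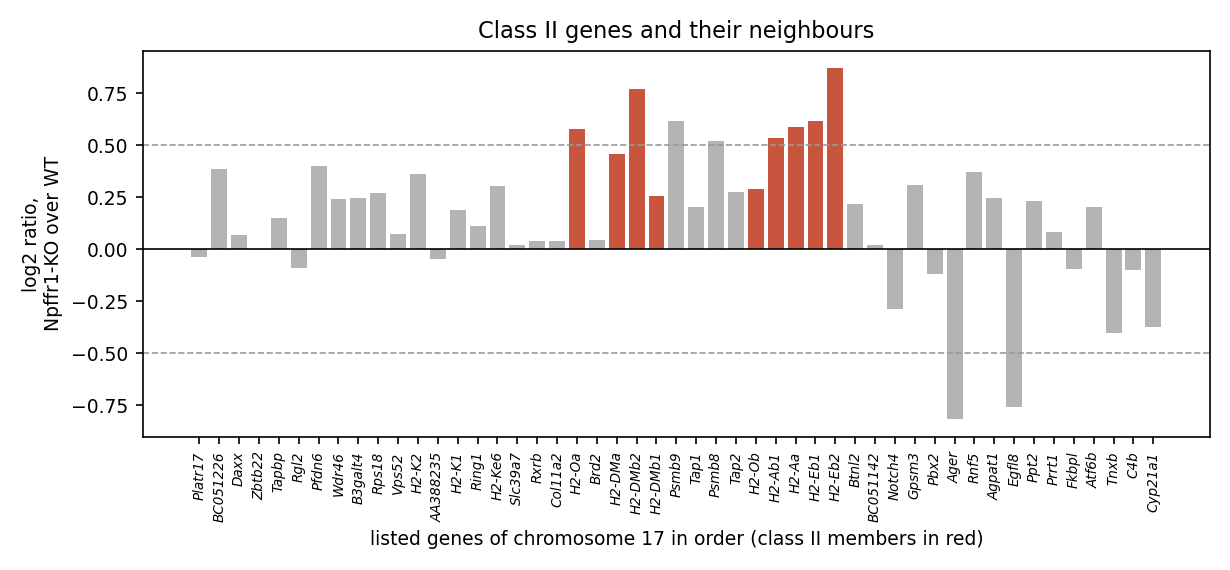
Log2 ratio of KO over WT for the listed genes of chromosome 17 with a mean of at least 10, in order, from 20 listed genes before *H2-Oa* to 20 beyond *H2-Eb2*, with class II genes in red and dashed lines at 0.5 and -0.5. The bars above 0.5 are 6 class II genes with *Psmb9* and *Psmb8* among them, and *Ager* and *Egfl8* lie below -0.5.

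The genes that act on class II transcription were examined next. *Ciita*, the coactivator of the class II promoters, had 253 in WT and 408.5 in KO (log2 ratio 0.69). It was the only one of 8 regulators to reach 0.5 upward, beside 4.37% of all genes. After centring on length it was again the only one (0.80), beside 3.36% of all genes. The DNA-binding factors did not share that difference in size. *Nfyc* and *Nfya*, subunits of the factor that binds CCAAT, had log2 ratios of 0.20 and 0.16. *Rfxank*, part of the complex that binds the X box, had 0.10, and *Creb1* had 0.03. The median of the 8 was 0.10.

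Of 14 listed partners in antigen processing and presentation, 3 reached 0.5 upward, beside 4.37% of all genes, and 0 downward, beside 4.78%. Their median was 0.30, and 2 reached 0.5 upward after centring on length, beside 3.36%. *Cd40*, a receptor through which T cells activate antigen-presenting cells, had 318.1 in WT and 475.3 in KO (log2 ratio 0.58, and 0.46 centred). *Cd80*, a ligand for costimulation of T cells, had a ratio of 0.65, and *Cd4*, the T cell co-receptor of class II, had 1514 in WT and 2209 in KO (0.55). *Cd83*, a marker of mature dendritic cells, had 657 in WT and 887.5 in KO (0.43). The most abundant partners, the endosomal proteases *Ctsb*, *Ctsd* and *Ctsl*, had lower ratios of 0.25, 0.35 and 0.00.

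The class I pathway, which presents peptides made inside the cell, had a median of 0.19 over 18 genes. Its 3 genes at 0.5 or more were *Psmb9*, *H2-Q10* (140.5 in WT, 212.4 in KO) and *Psmb8*, beside 4.37% of all genes. After centring on length 0 reached 0.5, beside 3.36% of all genes, with *H2-Q10* at 0.49. Its most abundant members, *B2m*, *H2-D1* and *H2-K1*, had ratios of 0.20, 0.22 and 0.19, below those of the class II chains. Genes of the interferon γ pathway, which induces *Ciita* in many cell types, had a median of -0.02 over 18 genes. In that list *Ifng* was higher in KO (0.56, and 0.39 centred on length) and *Iigp1*, an interferon-induced GTPase, was lower, at 1115 in WT and 717.1 in KO (-0.64).

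**Figure D4:**
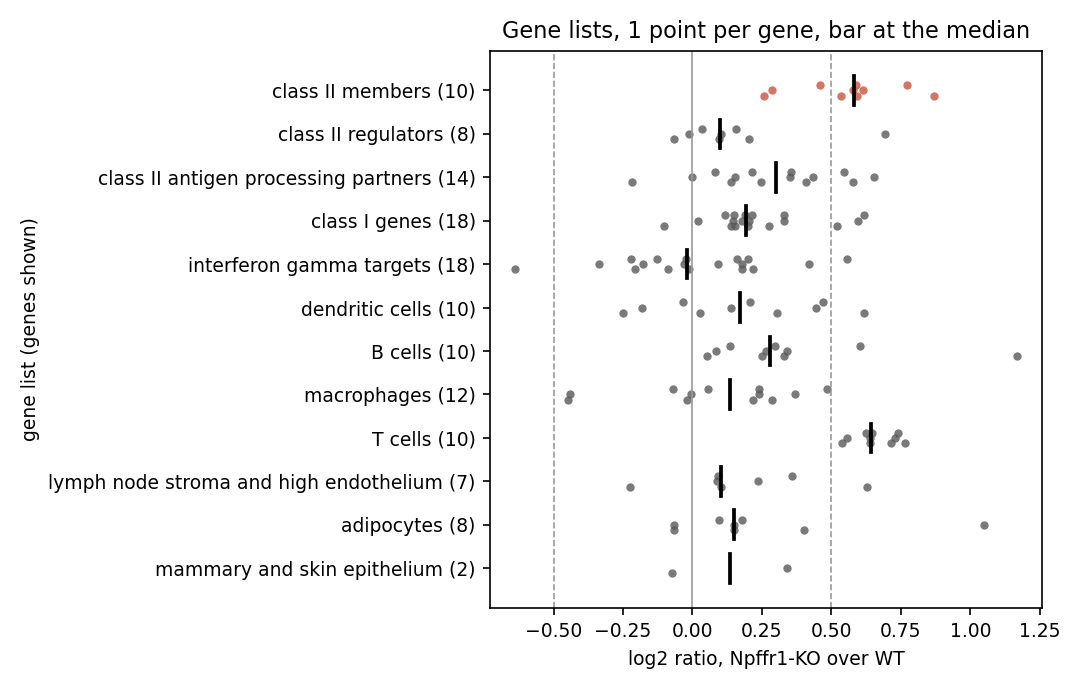
Log2 ratio of KO over WT for each gene of the class II group and of the lists set beside it, 1 point per gene with a mean of at least 10, a bar at the median and dashed lines at 0.5 and -0.5. The class II genes (median 0.58) and the T cell markers (0.64) lie furthest to the right, while the interferon γ list is centred near 0 (-0.02).

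Markers of the cells that can carry class II, and of the other cells in the sample, differed between genotypes to different extents, and not all of them upward. All 10 B cell markers were above 0, beside the 51.2% of all genes (median 0.28, and 0.17 centred on length). Their sum was 12984 in WT and 15842 in KO, and 2 reached 0.5, beside 4.37% of all genes. The 2 were *Cr2*, a complement receptor (129.3 and 290.4, log2 ratio 1.17), and *Fcer2a*, a low-affinity receptor for IgE (1406 and 2133, 0.60). Both also reached it after centring, beside 3.36% of all genes. Dendritic cell markers had a median of 0.17 over 10 genes (range -0.25 to 0.62), with 7 above 0 and 1 at 0.5 or more, *Cd209a*. Their sum was 17762 in WT and 20541 in KO, of which *Fscn1* alone made up 14424 and 16646, so the sum mostly reflects that gene. Macrophage markers had a median of 0.14 over 12 genes (range -0.45 to 0.48), with 7 above 0 and 0 at 0.5 or more. The macrophage sum was 27198 in WT and 31054 in KO. The medians of these 3 lists were below the 0.58 of the class II genes. Centred on length they were 0.17 for B cells, 0.06 for dendritic cells and 0.03 for macrophages, beside 0.38 for class II. The class II genes were chosen on this contrast, so nothing is read from that order.

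T cells of mice carry little class II. All 10 T cell markers reached 0.5 upward (median 0.64, range 0.54 to 0.77), beside 4.37% of all genes. After centring on length 9 did so, beside 3.36%. The list was chosen with earlier results of these data known, so nothing is read from these counts. The 10 markers summed to 10876 in WT and 16973 in KO. *Cd3g*, a chain of the T cell receptor complex, had 1112 in WT and 1891 in KO, and *Lck*, its proximal kinase, had 1675 and 2798. Lymph node stroma and high endothelium were represented in both genotypes, with a list sum of 17575 in WT and 20552 in KO and a median of 0.10. *Ccl21a*, a chemokine of lymph node stroma, had 5536 in WT and 7100 in KO, and *Glycam1*, a glycoprotein of high endothelial venules, had 5392 and 5736. The adipocyte markers that define the tissue were abundant, with *Fabp4* at 156285 in WT and 173188 in KO and *Adipoq* at 37027 and 35360, and had a median of 0.15 over 8 genes. Markers of mammary and skin epithelium were near 0, with a summed value of 64.5 in WT and 70.3 in KO. The part of these cell populations in the class II difference was not tested.

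Values for single libraries could be worked out for genes with low counts, where 1 combination of whole reads over the 6 libraries gives the mean of the deposited WT and KO values. With the search limited to means of 70 or less, this was so for 7046 of 7063 genes. None of the class II genes was that low, the lowest being *H2-Eb2* with a mean of 242.3, so the spread of the class II genes over the mice is unknown. The libraries are called a, b and c within a genotype, since the arithmetic gives the genotype of a library and not its sample number. *Cd80* had 35, 38 and 47 reads in the WT libraries and 94, 50 and 51 in the KO libraries. Divided by size factors, these were 39.2 ± 6.65 in WT and 65.6 ± 21.8 in KO (SD, n = 3 each). The 3 KO libraries were all above the 3 WT libraries, with 1 of them well above the rest, and 6.49% of the 2527 genes with reads worked out and a mean of at least 10 showed this upward and 10.1% downward.

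*Cd209a* had 8, 13 and 36 reads in WT and 39, 33 and 27 in KO, so the groups overlapped through 1 WT library. *Ifng* had 6, 6 and 14 reads in WT and 20, 14 and 11 in KO, and the groups overlapped as well. *Krt5*, a keratin of skin and mammary epithelium, had reads in only 2 libraries, 11 in WT c and 21 in KO a, and *Krt14* was likewise highest in these 2, with 6 and 11 reads. Other epithelial markers did not follow this order. *Krt18* had 16, 20 and 22 reads in WT and 10, 28 and 14 in KO. *Krt8* had 10, 9 and 9 in WT and 4, 7 and 8 in KO, and *Epcam* had 25, 36 and 25 in WT and 49, 33 and 28 in KO. WT c and KO a were also the highest libraries of their genotype for *Cd80*, *Cd209a* and *Ifng*.

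To describe lymphocytes in each library, the reads of low genes whose gene ontology text names B cells or T cells were summed, a choice made after seeing the data. The 12 B cell genes summed to 301.3, 277.1 and 344.4 in WT and to 445.2, 405.7 and 415.7 in KO, with every KO library above every WT library. Of these 12 genes taken singly, 3 had all KO libraries above all WT libraries and 1 had all below, beside the 6.49% and 10.1% given above. The 42 T cell genes summed to 1254, 1153 and 1418 in WT and to 1751, 1508 and 1242 in KO, so that 1 KO library lay within the WT range. Of the 42 genes, 9 had all KO libraries above all WT libraries and 2 had all below, beside the same 6.49% and 10.1%. Within each genotype both sums were highest in WT c and KO a. Of the epithelial markers only *Krt5* and *Krt14* were highest in both of these libraries, and the part of epithelium in the sums was not tested. Libraries of 1 genotype thus differed from each other in the sum of these 42 low genes by as much as the genotypes did. The 10 T cell markers given earlier are not among the 42. How those markers and the class II genes varied over the same libraries is not known.

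**Figure D5:**
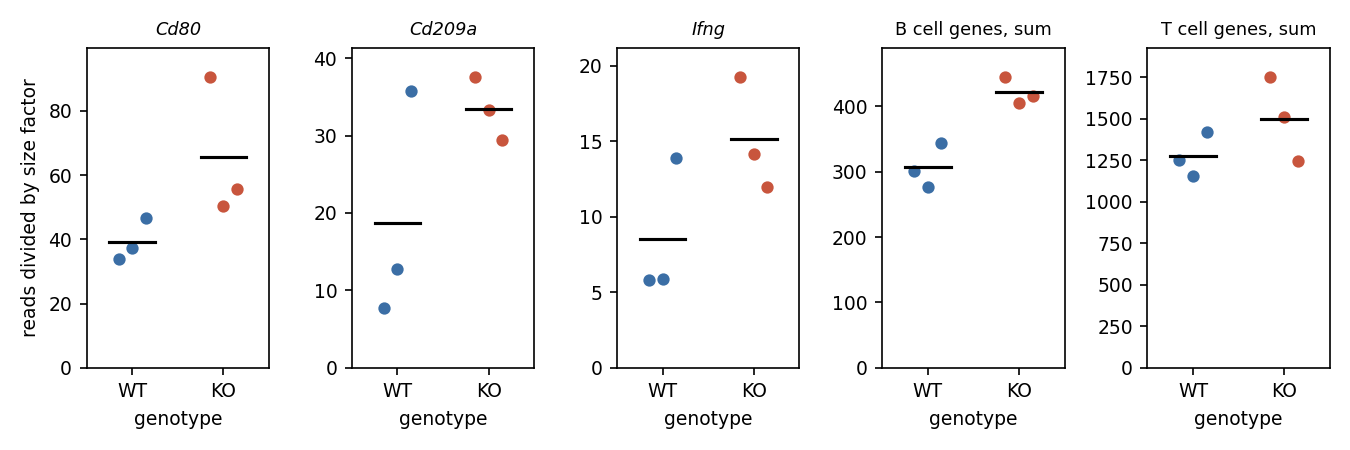
Reads divided by size factor in each WT (blue) and KO (red) library for *Cd80*, *Cd209a*, *Ifng* and the summed B cell and T cell genes with low counts, with a bar at the mean of 3 libraries and each panel starting at 0. The KO libraries lie above all WT libraries for *Cd80* and the B cell sum, and the groups overlap for *Cd209a*, *Ifng* and the T cell sum.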

How the data were processed

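RNA of 3 WT and 3 KO iAT samples at postnatal day 6 was sequenced. The submitters' processing notes name Bowtie2, RSEM and DESeq2, without versions, and the genome build is not given in the sources used here. The deposited signal used was the authors' normalized count, 1 value per genotype and gene, which is not the plain mean of the libraries of that genotype. The table's fold changes, p-values and adjusted p-values of the authors' own comparison were not used, nor was its subset of selected genes. No values per sample are listed. The genotype values pull differences of weakly counted genes toward 0: for genes with reads worked out and a mean of at least 10, the log2 ratio of reads was larger in size by a median of 0.06.

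The class II genes and all lists were chosen with earlier results of these data known. Genes named beside the 10 members were, for each list, up to 4 with the largest log2 ratio in size at a mean of at least 10 and up to 3 with the highest mean, together with neighbours at 0.5 or more and *Npffr1*. Keratin genes, *H2-Ea-ps*, *BC051142* and *Gm35444* were named after their values were seen. Log2 ratios had no pseudocount. Counting intervals (95%, Clopper-Pearson, with reads taken as independent) used reads estimated from the values and size factors. Size factors of the 6 libraries (0.917 to 1.04) and whole reads of low genes were recovered by a search for whole-number combinations, checked on simulated data. Of the 19831 gene IDs, 19781 matched the RefSeq table. No test was run, since the genes were chosen on this contrast and the table holds no replicate values for them. Python 3.11.15, numpy 2.4.6, pandas 2.3.3, scipy 1.17.1 and matplotlib 3.10.9 were used.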

Additional observations from a re-analysis of the deposited data

How the results depend on the processing

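Of the 10 class II genes, 7 or 8 reached the fold with no minimum mean, a minimum of 50, centring on all genes, pseudocounts of 1 or 10, or a log2 ratio of 0.3. After centring on genes of like length 2 did so, and at a log2 ratio of 1 there were 0. The median log2 ratio of 0.58 became 0.38 after centring on length and lay between 0.57 and 0.58 under the other alternatives, leaving out *Cd74* or both H2-DMb genes among them. Of 30 values of single genes under alternatives, 22 moved no further than the distance from the middle of their counting interval to its end. The other 8 moved further, all of these with centring on length, and 0 reversed. Without division by length, 5 of 10 genes kept their place in the order of WT levels. A tolerance 10 times wider left 7038 genes with 1 combination of reads. Ratios from reads, leaving out single libraries and ranking genes by likeness to the members were not run, because no member had reads per library, and proteins were not compared. No paired analysis was possible because the result comes from no test and the genotype values carry no replicate.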

Other observations

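Some markers set beside the class II genes differed by more than their lists did. *Lep*, which encodes leptin, was at 4210 in WT and 8703 in KO (log2 ratio 1.05), while the highest ratio among the other 7 adipocyte markers was 0.40, in *Pparg*. *Cxcl13*, a chemokine that attracts B cells into follicles, was at 1123 in WT and 1735 in KO (0.63). It was the only one of 7 markers of lymph node stroma and high endothelium to reach 0.5, beside 4.37% of all genes. After centring on length *Cxcl13* was at 0.46 and 0 of the 7 reached 0.5, beside 3.36% of all genes.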
